A study of Mus musculus with 6 samples.

Results

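Unconventional myosins are actin motors that do not build the filaments of contractile fibres, and 9 of their genes were compared between parental mouse embryonic fibroblasts and fibroblasts that had passed through narrow pores. The members were the rows of the count table whose gene identifier belongs to Myo10, Myo1c, Myo1d, Myo1e, Myo3b, Myo5a, Myo6, Myo7a or Myo9b, which is 9 of 55335 rows. RNA was sequenced from wild-type (WT) fibroblasts of the line called MEFs, adherent connective tissue cells. Cells that had crossed a transwell membrane with 3 μm pores within 15 h (3 μm_confine, here Confine) were compared with parental cells (control, here Ctrl), and neither group carried an allele or received an agent that the labels name. The labels do not say how Ctrl cells were plated or harvested, and Confine held only cells that had crossed. Passage through the pores, culture on the membrane and selection of cells able to cross therefore cannot be told apart. Words such as rose and fell describe a difference between the groups. The table holds 3 Ctrl and 3 Confine columns, but the columns of Confine replicates 1 and 2 differ in 0 genes. They were counted as 1 library, called Confine replicate 2 here, which leaves 3 Ctrl and 2 Confine libraries.

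A myosin heavy chain carries a motor head that walks or pulls on actin with energy from ATP, a neck that binds light chains, and a tail that decides what the motor holds. The short-tailed class I motors (Myo1c, Myo1d and Myo1e) link the plasma membrane to the actin beneath it and take part in membrane tension and endocytosis. Myo10 collects at the tips of filopodia and brings integrins there, and Myo3b and Myo7a serve the related actin protrusions of sensory cells. Myo5a carries vesicles and organelles towards the cell edge, Myo6 is the motor that walks the opposite way along actin and serves endocytosis and autophagy, and the tail of Myo9b carries a GTPase-activating domain.

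Of these 9 genes, Myo6 and Myo9b rose in Confine, 0 fell, 6 did not pass the test and Myo3b had no reads. Myo6 messages were 1.75-fold and Myo9b messages 1.44-fold as abundant in Confine as in Ctrl. Genes were called at an adjusted p under 0.05 in edgeR (quasi-likelihood test, Benjamini-Hochberg adjustment) over the 15881 genes that passed the filter on low counts. The 2 called members stand among 8 that were tested, where 23% of all tested genes were called, 12.8% as higher and 10.2% as lower, so the share of called members lay near the background. No member passed the study's additional cutoff of an absolute log2 fold change above 1.5, which 8% of all tested genes passed. At an unadjusted p under 0.05 there were also 2 members, beside 34.4% of all tested genes. The fitted log2 fold change was above 0 for 6 of the 8 tested members and for 49.8% of all tested genes, with medians of 0.14 and -0.0021. Both Confine libraries lay above all Ctrl libraries for 2 members (25.9% of all tested genes) and below them for 1 (23.6%). When only library size was used for scaling, Myo10, Myo1c and Myo5a turned below 0, the median log2 fold change over all tested genes shifted by -0.21 and 34.0% of the calls were higher in Confine, against 55.7% with TMM.

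The promoters of Myo6 and Myo9b, the members that rose, are shown next to that of Myo10, the filopodia tip motor, whose difference did not pass the test. Each is the run of 250 bases before the start of the RefSeq gene (GRCm38.p6), on the gene's own strand. Capitals mark the GC box GGGCGG on either strand, with overlapping matches counted separately.
Myo6: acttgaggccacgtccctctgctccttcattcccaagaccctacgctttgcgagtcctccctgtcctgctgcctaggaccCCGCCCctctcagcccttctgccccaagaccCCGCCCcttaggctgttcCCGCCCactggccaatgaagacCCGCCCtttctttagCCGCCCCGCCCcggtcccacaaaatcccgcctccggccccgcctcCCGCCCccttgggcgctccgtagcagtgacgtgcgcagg
Myo9b: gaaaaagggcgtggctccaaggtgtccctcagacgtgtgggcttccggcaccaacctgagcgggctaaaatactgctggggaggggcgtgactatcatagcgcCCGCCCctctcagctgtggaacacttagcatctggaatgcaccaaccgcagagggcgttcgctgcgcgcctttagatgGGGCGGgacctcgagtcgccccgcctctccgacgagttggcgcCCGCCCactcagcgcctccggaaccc
Myo10: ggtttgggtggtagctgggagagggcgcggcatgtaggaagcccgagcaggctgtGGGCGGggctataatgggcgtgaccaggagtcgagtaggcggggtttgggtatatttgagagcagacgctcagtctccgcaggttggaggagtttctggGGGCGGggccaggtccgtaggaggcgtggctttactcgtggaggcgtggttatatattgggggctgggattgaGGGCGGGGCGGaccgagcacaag
The Myo6 sequence is chr9:80164784-80165033, the Myo9b sequence is chr8:71272464-71272713 and the Myo10 sequence is chr15:25622300-25622549, all on the plus strand. Myo6 held 7 GC boxes, a number reached by 0.411% of the 32851 annotated starts of all genes, against 4 in Myo10 (reached by 4.09%) and 3 in Myo9b (reached by 8.47%). A single GC box or more was present before 32.7% of all starts. Myo6, Myo9b and Myo10 had 18, 22 and 17 CpG dinucleotides in these bases, against a median of 6 over all starts. The core of the hypoxia response element (ACGTG or GCGTG, either strand, either form counted) occurred 2 times before Myo6, 3 times before Myo9b and 3 times before Myo10, and 38.6% of all starts had at least 1 match. The TEAD motif GGAATG occurred once before Myo6 and once before Myo9b (12.6% of all starts), and the AP-1 motif (TGACTCA or TGAGTCA, which are the same site read on either strand, 4.46% of all starts) had 0 matches in the 3 sequences. These matches describe letters in the sequence and say nothing about binding. Of the 9 members, 8 had a promoter entry and Myo1d had none. Myo10, Myo7a and Myo1c have further annotated starts, and counts per gene do not separate the isoforms that begin at them.

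The libraries held 22287210 to 32537550 counts, of which the 9 genes took 9513 to 15824 reads per library, or 0.0427% to 0.0576%. A floor of 3 counts corresponds to 0.101 to 0.128 normalized CPM (counts per 1000000 reads of the TMM-scaled library). This floor reflects counting error alone, because PCR copies of a molecule were not marked. Of 10 fibroblast markers, Col1a1, Col1a2, Col3a1, Vim and Fn1 were among the abundant messages in every library, whereas Thy1 had at most 2 counts and Dcn at most 27. Their sum was 8745 to 9602 CPM in Ctrl and 15732 to 16510 CPM in Confine. Of the 8 tested, 5 were called higher (Col1a1, Col3a1, Pdgfra, Vim and Fn1) and 0 lower, beside 12.8% and 10.2% of all tested genes. Col1a2, Pdgfrb and S100a4 were not called, with log2 fold changes of 0.24, -0.36 and -0.28. In bulk RNA, fewer cells of a type and less RNA per cell cannot be told apart. Markers of epithelial, endothelial and hair cells, summed for each cell type on its own, reached at most 0.718 CPM in any library. Of 5 melanocyte markers, Tyr and Tyrp1 were at 0 in every library, and the sum was 1.19 to 2.04 CPM in Ctrl and 1.27 to 1.39 CPM in Confine, where Mlana fell (log2 fold change -3.40, edgeR adjusted p = 0.00340).

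Per unit of exon length, Myo1c was the most abundant member and Myo6 the least abundant of those detected. Levels between genes are given as normalized RPKM, the normalized CPM per kilobase of annotated exon. In Ctrl, Myo1c had 22.8 ± 3.33 normalized RPKM (SD, n = 3), Myo10 7.94 ± 1.72, Myo9b 7.27 ± 1.13, Myo1d 6.94 ± 0.234, Myo1e 5.15 ± 1.08, Myo7a 3.71 ± 0.386, Myo5a 3.46 ± 0.592 and Myo6 1.30 ± 0.220. The Ctrl ranges of the neighbours Myo10 and Myo9b, Myo9b and Myo1d, and Myo7a and Myo5a overlapped, and the other neighbours in this order did not overlap. In Confine, Myo9b (10.5 ± 0.594 normalized RPKM, SD, n = 2) stood above Myo10 (8.33 ± 0.175), and the Confine ranges of these 2 genes did not overlap. Myo7a (4.35 ± 0.429) stood above Myo5a (3.76 ± 0.364) in Confine, with ranges of 4.04 to 4.65 and 3.51 to 4.02 that did not overlap. Myo1e (4.36 ± 0.603) could not be placed against these in Confine, since its range, 3.93 to 4.79, overlapped those of both. Myo1c had 25.6 ± 4.74 normalized RPKM in Confine.

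**Figure D1:**
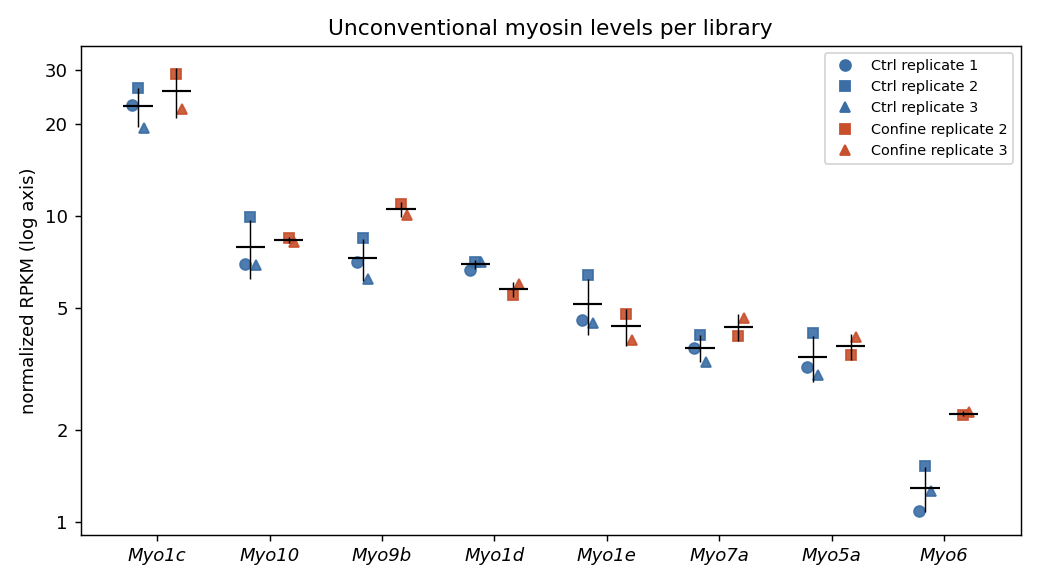
Normalized RPKM (log axis) of the 8 detected members in each library, with blue symbols for Ctrl, orange symbols for Confine, horizontal bars for group means and vertical bars for ± 1 SD (n = 3 and n = 2). Both Confine libraries lie above all Ctrl libraries for Myo6 (2.23 and 2.29 against at most 1.53) and for Myo9b (10.1 and 10.9 against at most 8.48).

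Myo6 showed the largest log2 fold change of the 8 tested members. The gene (ENSMUSG00000033577.18) lies on chromosome 9 from 80165031 to 80311729 on the plus strand (GRCm38), and its exons cover 12078 bases. Reads on Myo6 numbered 382, 489 and 361 in Ctrl against 799 and 698 in Confine, or 13.2, 18.5 and 15.4 normalized CPM in Ctrl and 27.0 and 27.7 normalized CPM in Confine. The means were 15.7 ± 2.66 normalized CPM in Ctrl (SD, n = 3) and 27.4 ± 0.509 in Confine (SD, n = 2). Both Confine values were above every Ctrl value, and they lay closer together than the Ctrl values did, with a coefficient of variation of 1.86% in Confine and 16.9% in Ctrl. Counting alone would give at most 5.26% in a library. A stretch of 100 bases of Myo6 exon has a near-identical copy in another gene, Sdhaf2, and reads from it are uncertain. The log2 fold change was 0.80 (standard error 0.20, 95% interval 0.39 to 1.22, edgeR adjusted p = 0.00571). An exact permutation test on log2(CPM + 1) gave p = 0.1 (two-sided), the smallest p that 3 libraries against 2 allow. The call ended when either Confine library was left out, with a log2 fold change of 0.82 (edgeR adjusted p = 0.0522) without Confine replicate 2 and 0.78 (edgeR adjusted p = 0.0689) without Confine replicate 3.

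None of 12 listed adaptor and clathrin genes linked to Myo6 was called in edgeR. The list of 12 tested genes, some of them named here after their values were seen, held the adaptors Gipc1, Optn, Tax1bp1, Calcoco1, Dab2, Tom1, Tom1l2, Lmtk2 and Sytl1 and the clathrin chains Clta, Cltb and Cltc. Their median log2 fold change was 0.11, and 0 had an adjusted p under 0.05 in edgeR (3 had an unadjusted p under 0.05, and DESeq2 called 1, which was Dab2 with a DESeq2 adjusted p of 0.0354). The endocytic adaptor Dab2, which loads Myo6 onto clathrin-coated vesicles, had a log2 fold change of 0.49 (edgeR adjusted p = 0.0515), and the autophagy-related Calcoco1 had 0.62 (edgeR adjusted p = 0.0652). The clathrin light chain Cltb had -0.53 (edgeR adjusted p = 0.0727). Library-by-library patterns were compared with those of 10456 other tested genes, all with an average log2 CPM above 2. The 3 of these closest to Myo6 were Sec61b, Polk and Gm45345. Their root mean square distances were 0.0397, 0.0414 and 0.0420 on the centred log2 CPM scale over the 5 libraries.

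Myo9b, the member with the GTPase-activating tail, showed the second difference. It (ENSMUSG00000004677.17) lies on chromosome 8 from 71272714 to 71360713 on the plus strand, with 7496 exonic bases. Reads on Myo9b numbered 1537, 1682 and 1101 in Ctrl against 2424 and 1904 in Confine, which corresponds to 53.1, 63.6 and 46.8 normalized CPM in Ctrl and 81.9 and 75.6 normalized CPM in Confine. The groups did not overlap, with means of 54.5 ± 8.46 normalized CPM in Ctrl (SD, n = 3) and 78.7 ± 4.45 in Confine (SD, n = 2). The log2 fold change was 0.53 (standard error 0.19, 95% interval 0.14 to 0.92, edgeR adjusted p = 0.0474). The exact permutation test gave p = 0.2 (two-sided). The adjusted p lay close to the threshold, and it was at or above 0.05 in 8 of the 15 other fits, among them 4 of the 5 that leave out 1 library (edgeR adjusted p from 0.142 without Ctrl replicate 1 to 0.257 without Confine replicate 2).

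A protein-coding gene on the opposite strand, Haus8, shares 116 exonic bases with Myo9b, and whether counting used the strand is not given in the sources used here. Haus8, a subunit of the augmin complex of the mitotic spindle, had 3664, 2647 and 2739 counts in Ctrl and 1281 and 1448 in Confine, the opposite direction to Myo9b (log2 fold change -1.18, edgeR adjusted p = 2.30e-04). Myo9b is also abundant in leukocytes. Of 8 leukocyte markers, 3 (Adgre1, Cd52 and Tyrobp) were at 0 in every library, and Ptprc had 0 counts in both Confine libraries. The summed level of the 8 markers was 7.23 to 8.39 CPM in Ctrl and 18.3 to 25.9 CPM in Confine. Most of the Confine sum was Cd68 alone, at 2.35, 3.89 and 3.19 CPM in Ctrl and 16.6 and 23.3 in Confine. Csf1r also rose, from a mean of 0.520 CPM in Ctrl to 1.45 in Confine. Lyz2 fell, from a mean of 4.26 CPM in Ctrl to 0.684 in Confine, so the sum does not describe the markers as a set. The part of these markers in the Myo9b result was not tested. The leukocyte class I myosins Myo1f and Myo1g had at most 3 counts in any library.

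**Figure D2:**
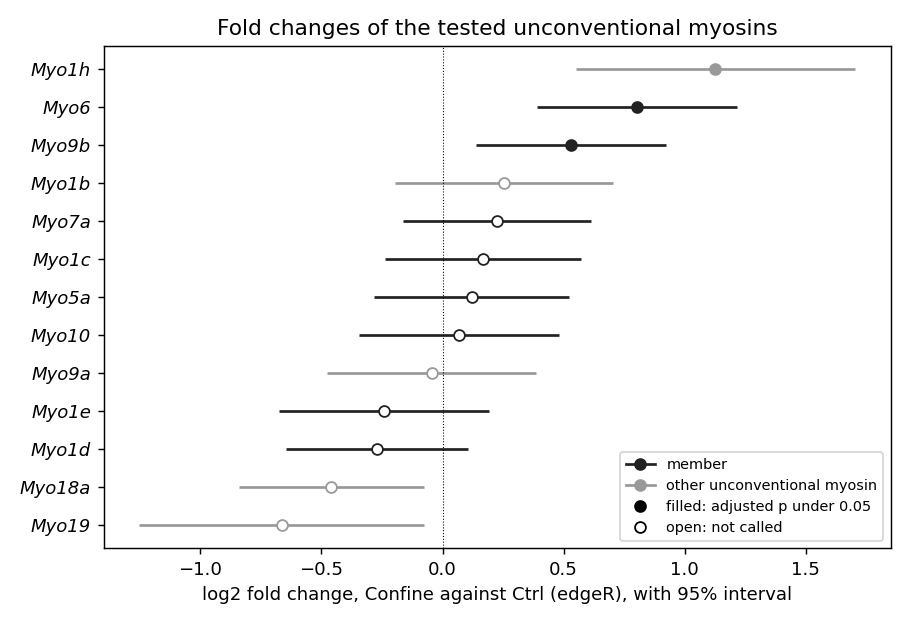
Log2 fold change of Confine against Ctrl with its 95% interval for the 8 tested members (black) and 5 other tested unconventional myosins (grey), where filled points have an edgeR adjusted p under 0.05. Only Myo1h, Myo6 and Myo9b are filled, at 1.13, 0.80 and 0.53.

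The 3 class I members, which tie membrane to actin, did not pass the test. Myo1c (chromosome 11, 75650504 to 75673910, plus strand) had 127.5 to 171.4 normalized CPM in Ctrl and 146.4 and 190.5 in Confine, and its fold change was 1.12 (95% interval 0.849 to 1.48, edgeR adjusted p = 0.590). Stretches of up to 106 bases of Myo1c exon have near-identical copies in 14 other genes, and reads from them are uncertain. Myo1d (chromosome 11, 80482126 to 80780025, minus strand) had 43.1, 45.7 and 45.8 normalized CPM in Ctrl and 35.7 and 38.8 in Confine. Its Confine values lay below all Ctrl values, as did those of 23.6% of all tested genes, and the fold change was 0.830 (95% interval 0.640 to 1.08, edgeR adjusted p = 0.312). The spread of Myo1d between Ctrl libraries was the narrowest of the 8 members, at a coefficient of variation of 3.37%. For Myo1e (chromosome 9, 70207350 to 70399766, plus strand), a motor of endocytic sites and adhesions, the fold change was 0.846 (95% interval 0.627 to 1.14, edgeR adjusted p = 0.447), with overlapping groups of 25.6 to 36.5 and 22.4 to 27.3 normalized CPM. Among 10456 other tested genes with an average log2 CPM above 2, Med23, Gm45338 and Tmem47 were closest in pattern to Myo1d, the member with the lowest fold change. Their root mean square distances were 0.0317, 0.0336 and 0.0337 on the centred log2 CPM scale over the 5 libraries.

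Among the filopodia and protrusion motors, Myo10 had 80.4 ± 17.4 normalized CPM in Ctrl (SD, n = 3) and 84.4 ± 1.77 in Confine (SD, n = 2). Myo10 (chromosome 15, 25622525 to 25813673, plus strand) had 2042, 2659 and 1650 counts in Ctrl and 2534 and 2093 in Confine. The corresponding levels were 70.5, 100.5 and 70.2 normalized CPM in Ctrl and 85.6 and 83.1 normalized CPM in Confine, so both Confine libraries lay between the Ctrl libraries. Its fold change was 1.05 (95% interval 0.788 to 1.40, edgeR adjusted p = 0.844), an interval that leaves room for a moderate change in either direction. Myo7a (chromosome 7, 98051060 to 98119524, minus strand) had 28.5 to 35.1 normalized CPM in Ctrl and 34.6 and 39.8 in Confine, with a fold change of 1.17 (95% interval 0.894 to 1.53, edgeR adjusted p = 0.422). Myo3b (chromosome 2, 70039126 to 70429198, plus strand) had 0 counts in all 5 libraries, which allows up to 0.128 normalized CPM in the shallowest. A stretch of 330 bases of Myo3b exon has a near-identical copy in Gm17867, and 70 exonic bases are shared with Gm13631 on the same strand. Reads from these stretches are uncertain, and the bound does not cover them. The class III relative of Myo3b, Myo3a, was also at 0 in every library.

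Of the 9 genes listed as partners of Myo7a and Myo3b, 5 were tested, 3 rose and 0 fell, beside 12.8% of all tested genes called higher and 10.2% called lower. Cdh23, a cadherin of the links between stereocilia, had 24, 33 and 26 counts in Ctrl and 91 and 109 in Confine (log2 fold change 1.80, edgeR adjusted p = 8.79e-04). Whrn, the scaffold whirlin of stereocilia tips, had 219, 300 and 204 counts in Ctrl and 666 and 392 in Confine (log2 fold change 1.05, edgeR adjusted p = 0.00248), a call that ended without Confine replicate 2 (0.76, edgeR adjusted p = 0.105). Espn, the actin bundler that class III myosins carry, had 10, 4 and 4 counts in Ctrl and 43 and 63 in Confine (log2 fold change 3.10, edgeR adjusted p = 2.55e-04). Espn passed the filter on low counts only through its Confine libraries, and the study had already picked it from these data as higher. Its place among the 3 genes that rose is therefore no separate evidence about the list. Other listed genes of the sensory hair bundle, Ush1c, Ush1g and Pcdh15, had at most 7 counts in any library.

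Of 11 listed cargo and partner genes of Myo10, 9 were tested, 2 rose and 0 fell, where the shares over all tested genes were 12.8% and 10.2%. Itgb3, the β3 integrin chain, had 58, 101 and 41 counts in Ctrl and 471 and 657 in Confine (log2 fold change 3.05, standard error 0.30, edgeR adjusted p = 7.00e-07). Acvrl1, a receptor of the BMP family, rested on few reads, with 6, 2 and 2 counts in Ctrl and 15 and 18 in Confine (log2 fold change 2.24, edgeR adjusted p = 0.0274). Acvrl1 passed the filter on low counts only through its Confine libraries, so its place among the 2 genes that rose is no evidence about the list. It was not tested when at least 10 counts were required in every library. Its adjusted p was 0.0733 in DESeq2, and in edgeR it ran from 0.0538 to 0.247 in the fits without Ctrl replicate 2, Ctrl replicate 3, Confine replicate 2 or Confine replicate 3, so the call ended in each of these. The more abundant integrin chains were Itgb1 (log2 fold change 0.30, edgeR adjusted p = 0.322) and Itgb5 (0.28, edgeR adjusted p = 0.299). The filopodial actin regulators Vasp, Enah, Evl and Fscn1 had log2 fold changes of -0.048 to 0.45, and none passed the test.

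Myo5a, the vesicle motor, lies on chromosome 9 from 75071015 to 75223688 on the plus strand. It had 44.8 to 61.2 normalized CPM in Ctrl and 51.9 and 59.5 in Confine, with a fold change of 1.09 (95% interval 0.822 to 1.44, edgeR adjusted p = 0.712). Of its 9 tested partner genes, 1 rose and 0 fell, beside 12.8% and 10.2% of all tested genes. This was Spire1, an actin nucleator that class V myosins recruit to vesicles, with 527, 517 and 365 counts in Ctrl and 1017 and 1022 in Confine (log2 fold change 1.08, standard error 0.19, edgeR adjusted p = 3.24e-04). Rab11a, which marks recycling vesicles, had a log2 fold change of 0.42 (edgeR adjusted p = 0.116), and its Confine libraries lay above all Ctrl libraries.

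**Figure D3:**
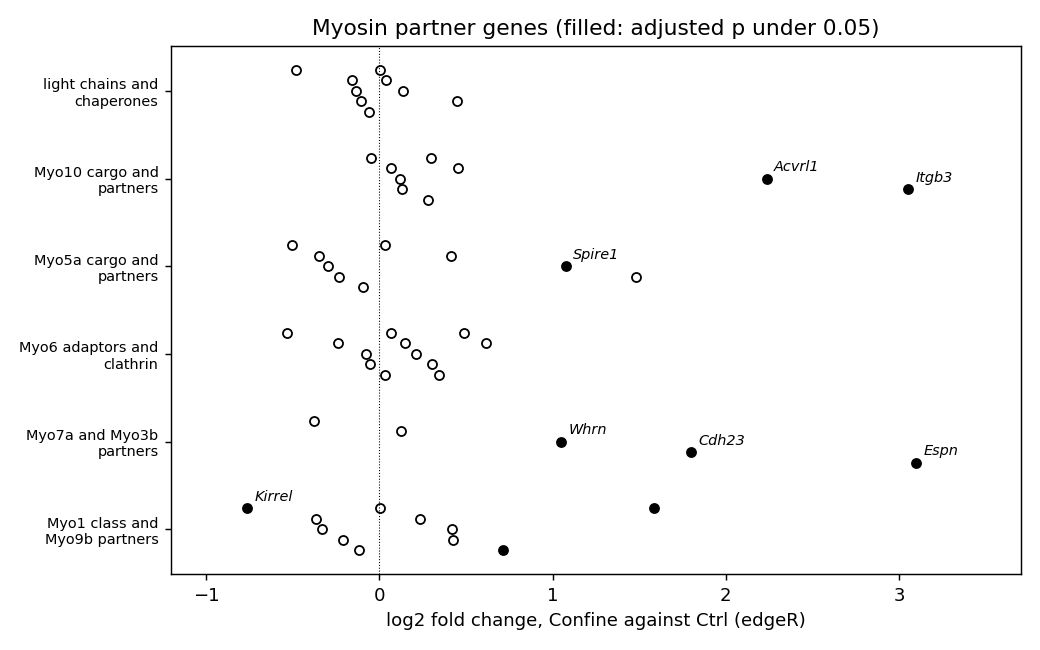
Log2 fold change of Confine against Ctrl for the tested genes of the 6 partner lists, 1 point per gene spread vertically for clarity, where filled points have an edgeR adjusted p under 0.05 and the genes described in the text carry their symbols. The 8 genes that rose run from 0.71 to 3.10 (Espn), and Kirrel at -0.76 is the filled point on the left.

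Over the 6 partner lists together, 8 of 55 tested genes rose and 1 fell, beside 12.8% and 10.2% of all tested genes, and their median log2 fold change was 0.067. Espn and Acvrl1, among the 8, passed the filter on low counts only through Confine. The gene that fell was Kirrel, a membrane protein that Myo1c carries in podocytes (733, 416 and 532 counts in Ctrl, 361 and 323 in Confine, log2 fold change -0.76, edgeR adjusted p = 0.0185). This call ended without Ctrl replicate 1 (edgeR adjusted p = 0.101), Confine replicate 2 (edgeR adjusted p = 0.151) or Confine replicate 3 (edgeR adjusted p = 0.118). In the list of light chains and chaperones, 0 of 9 tested genes were called in edgeR, with 1 at an unadjusted p under 0.05 and 0 by DESeq2. The myosin chaperone Unc45a had a log2 fold change of -0.14. Myl12b has a second, overlapping gene model, so its count is uncertain.

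Of 15 further unconventional myosin genes listed, 5 were tested, 1 rose and 0 fell, a count too small to set against the 12.8% and 10.2% of all tested genes. Myo1h, a class I motor, had 91, 66 and 82 counts in Ctrl and 168 and 192 in Confine (log2 fold change 1.13, standard error 0.27, edgeR adjusted p = 0.00531). Without Confine replicate 3 the log2 fold change was 0.90 (edgeR adjusted p = 0.112) and the call ended. Myo19, which moves mitochondria, had 404, 225 and 228 counts in Ctrl and 256 and 122 in Confine (log2 fold change -0.66, edgeR adjusted p = 0.0978). Myo18a, a Golgi-associated myosin, had a log2 fold change of -0.46 (edgeR adjusted p = 0.0782, DESeq2 adjusted p = 0.0455), and its Confine libraries lay below all Ctrl libraries. The untested 10 genes, among them Myo5b, Myo5c, Myo7b and Myo15, had at most 12 counts in any library. For reference among the conventional non-muscle heavy chains, Myh10 fell by 0.78 on the log2 scale (edgeR adjusted p = 0.00336, and 0.0550 without Confine replicate 2), Myh9 had 0.083 (edgeR adjusted p = 0.806) and Myh14 had 0 counts.

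The mixture of myosin messages within a library does not depend on the scaling between libraries. Myo9b made up 12.6%, 12.5% and 12.1% of the summed RPKM of the members in Ctrl and 16.0% and 16.4% in Confine. Myo6 made up 1.94%, 2.26% and 2.46% in Ctrl and 3.27% and 3.74% in Confine. Myo1e accounted for 8.13%, 9.46% and 8.66% in Ctrl against 6.99% and 6.40% in Confine. In these 3 genes and in Myo1d the groups did not overlap. Such separation was common: by normalized CPM rather than share, Confine lay above Ctrl in 25.9% and below it in 23.6% of all tested genes. An exact permutation test (two-sided) on the shares gave p = 0.1 for Myo9b, Myo6 and Myo1e and p = 0.2 for Myo1d. The smallest p that 3 libraries against 2 allow is 0.1. With 8 such tests, one per detected member, none could pass 0.05 at this number of libraries. Shares sum to a fixed total, so a rise of some requires a fall of others. Myo1c held 36.2% to 42.3% and Myo10 12.4% to 14.7% over all 5 libraries.

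**Figure D4:**
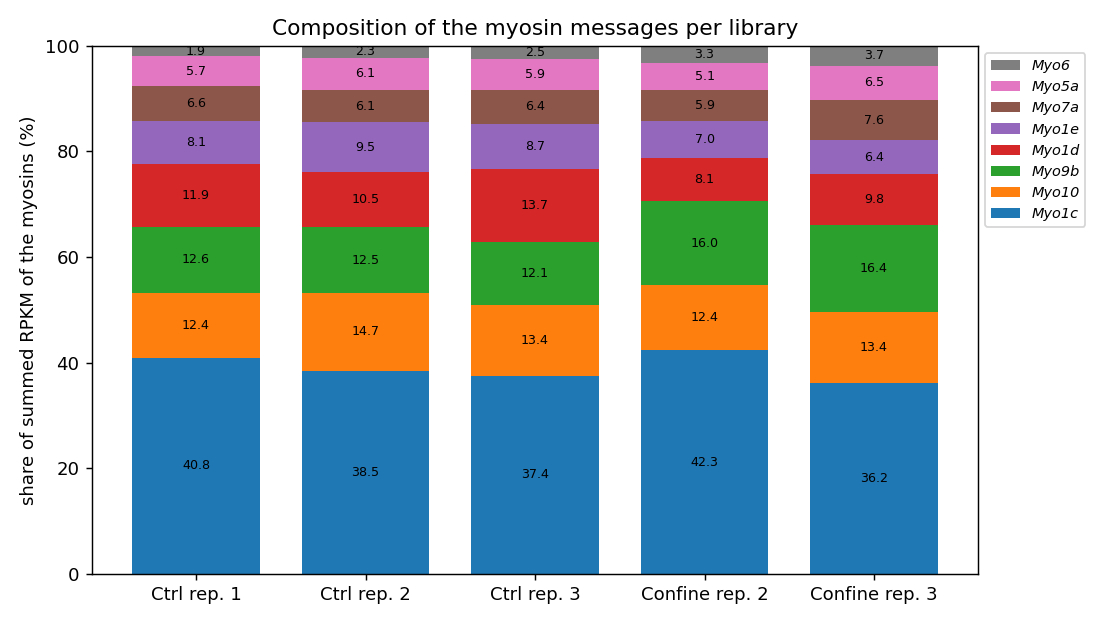
Share (%) of each detected member in the summed normalized RPKM of the members, 1 bar per library, with the value printed in each block. Myo9b takes 12.1% to 12.6% in the Ctrl bars and 16.0% to 16.4% in the Confine bars.

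In 7 of the 8 detected members, Ctrl replicate 2 was the highest of the Ctrl libraries, and the exception was Myo1d. The ratio of the highest to the lowest Ctrl library ran from 1.06 for Myo1d to 1.43 for Myo10. The summed level of the members was 404.6 to 532.5 normalized CPM in Ctrl and 493.4 and 534.6 in Confine, with overlapping groups.

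**Figure D5:**
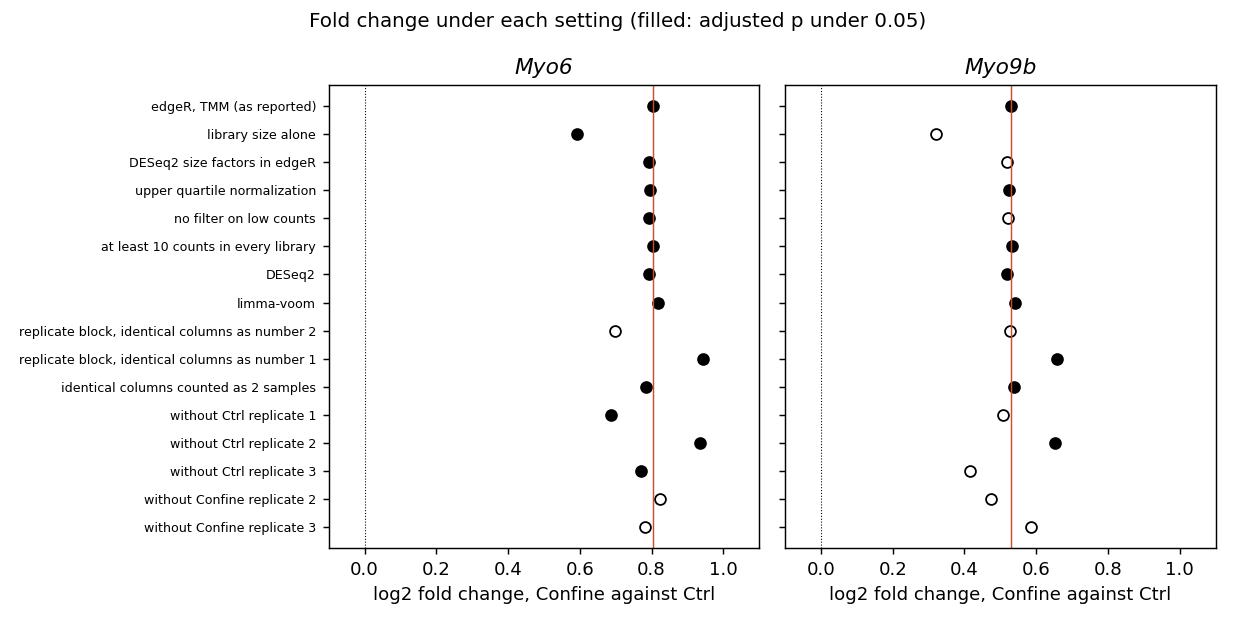
Log2 fold change of Myo6 (left) and Myo9b (right) in the fit as reported (orange line) and in 15 other fits, where filled points have an adjusted p under 0.05. All values are positive, from 0.59 to 0.94 for Myo6 and from 0.32 to 0.66 for Myo9b, and 8 of the 15 other points are open for Myo9b against 3 for Myo6.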

How the data were processed

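Poly(A) RNA from the 2 groups was sequenced from strand-marking (dUTP) libraries. The authors deposited raw read counts per gene, not normalized. Their processing notes name Trim Galore 0.6.10, HISAT2 2.1.0, SAMtools 1.5, featureCounts and the build mm10, and the strand setting and annotation of the counting are not given in the sources used here. Gene symbols, positions and exon lengths were taken from GENCODE M21 (GRCm38), which matched 55154 of 55335 identifiers once version numbers were dropped.

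From the counts, edgeR 4.0.16 (R 4.3.3) was run with TMM factors, the filterByExpr filter and the quasi-likelihood test over 15881 genes, with 3 residual degrees of freedom. Two-sided exact permutation tests used log2(CPM + 1), where CPM is the normalized count level. Alternatives used DESeq2 1.42.0, limma 3.58.1, other scalings and filters, and left out single libraries. The labels do not say that replicates came from separate cultures, so p-values measure the spread between these samples, which may be technical. The members, gene lists and tests were chosen with earlier results of these data known. The rule for naming took all members, up to 20 called genes of the lists, and the 3 genes nearest in pattern to the members with the highest and lowest log2 fold change. Nearest genes were sought among tested genes with an average log2 CPM above 2. Listed genes that were not called were named after their values were seen. Some listed genes, 2 of the 8 partner genes called higher among them, are counted but not reported by name here.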

Additional observations from a re-analysis of the deposited data

How the results depend on the processing

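Myo6 kept its direction in all 15 other fits (log2 fold change 0.59 to 0.94), as did Myo9b (0.32 to 0.66). The number of members called higher, 2 as reported, was 1 with library size alone, 1 with DESeq2 size factors in edgeR, 1 with no filter on low counts, 0 against a minimum log2 change of 0.5 (glmTreat) and 0 to 2 when 1 library was left out, and 0 members were called lower in any fit. Other myosins called lower, 0 as reported, were 2 with library size alone, 1 with no filter, 1 with DESeq2, 1 with the identical columns as 2 samples and 0 to 1 with a library left out, and those called higher were 0 to 1 with a library left out. Partner genes called higher, 8 as reported, were 14 with the identical columns as 2 samples and 6 to 12 with a library left out, and those called lower, 1 as reported, were 4 with library size alone, 0 with glmTreat, 3 with the identical columns as 2 samples and 0 to 2 with a library left out. Over all genes, 2035 were higher and 1619 lower, against 1166 and 807 with glmTreat, 2805 lower with library size alone, 2456 lower with the identical columns as 2 samples, and 1196 to 2411 higher and 850 to 2015 lower with a library left out. Reversed values were Myo10 -0.14, Myo1c -0.045 and Myo5a -0.090 with library size alone, Myo10 -0.022 without Ctrl replicate 1 and -0.037 without Ctrl replicate 3, and Myo1c -0.033 without Confine replicate 2, none of them called. With a library left out, Myo10 ran from -0.037 to 0.26 and Myo1c from -0.033 to 0.34. The cause was not tested. Leaving out a Confine library leaves 1, assumed to vary like the Ctrl libraries. The labels do not say whether the replicate numbers pair samples. The correlation across genes of same-numbered deviations was -0.091 with the identical columns as number 2 and 0.077 as number 1. It rests on 2 pairs of numbers and cannot exclude pairing. With a replicate block, members called higher were 0 with the identical columns as number 2, partner genes lower were 0, and genes called overall were 1448 higher and 1080 lower, while as number 1 the block gave 13 partner genes higher, 2 lower, 2 other myosins lower, and 2640 higher and 2293 lower over all genes.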
